A study of Mus musculus with 6 samples.

Results

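The urea cycle converts ammonia into urea, and hepatocytes are the cells that run it in full. Of its 7 enzymes named here, 6 were measured in primary mouse hepatocytes depleted of retinol saturase (RetSat) by siRNA (siRetSat) or treated with control siRNA (siControl). These were Nags, Cps1, Otc, Asl, Arg1 and Arg2, out of 19938 genes in all. A gene was taken as measured when the platform annotation gave a probe set its symbol and no other, and the brightest probe set over the 6 arrays stood for it. Each of the 6 enzymes had 1 such probe set. Both probe sets of Ass1 are also annotated to Gm5424, so no level of Ass1 itself is given.

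All cells came from 1 wild-type male C57BL/6J mouse, aged 10 weeks by the series' description, and were kept as primary cultures with 25 mM glucose. They were transfected overnight with 1 nmol of siRNA against RetSat or of control siRNA, and lysed 48 h after new medium was given the next morning. Only 1 siRNA treatment against RetSat was profiled, so other effects of that siRNA and of RetSat loss cannot be told apart. Each group had 3 independent transfections (n = 3), each on 1 Affymetrix Mouse Gene 1.0 ST array. Differences are given on the log2 scale as siRetSat minus siControl, and p-values measure the spread between transfections of cells of this mouse only.

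In the mitochondrion, N-acetylglutamate synthase (Nags) makes the activator of carbamoyl phosphate synthetase (Cps1), which fixes ammonia in the first committed step. Ornithine transcarbamylase (Otc) then forms citrulline, which leaves for the cytosol. There argininosuccinate synthetase (Ass1) and argininosuccinate lyase (Asl) build arginine, and the liver-type arginase Arg1 splits it into urea and ornithine. Arg2 is the mitochondrial arginase of mostly non-hepatic tissues such as kidney. In the liver lobule the cycle is a task of cells near the portal vein, while cells around the central vein take up the ammonia that escapes it and make glutamine.

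In siRetSat cultures Cps1 mRNA, for the entry enzyme of the cycle, fell to 56.8% of its siControl level. Arg2 mRNA, for the mitochondrial arginase, rose 2.29-fold. Nags, Otc, Asl and Arg1 did not pass the test. The 2 members that passed were 1 higher and 1 lower, at an adjusted p under 0.05 from limma. Beside them, 3.56% of all genes were called, 1.91% higher and 1.66% lower. The same 2 passed looser cutoffs, an unadjusted p under 0.05 from limma with an absolute log2 difference of at least 0.32, as 9.05% of all genes did. These are the study's limits, which were set there on the methods' t-test and not on limma. Without the size limit, 3 members had an unadjusted p under 0.05, as 14.5% of all genes did. The groups did not overlap for 3 of the 6 members, Cps1, Asl and Arg2, as for 19.5% of all genes. Retsat itself had log2 intensities of 4.62, 4.83 and 4.81 in siRetSat and 6.80, 7.04 and 7.01 in siControl, a difference of -2.20 (adjusted p = 0.000112 from limma).

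**Figure D1:**
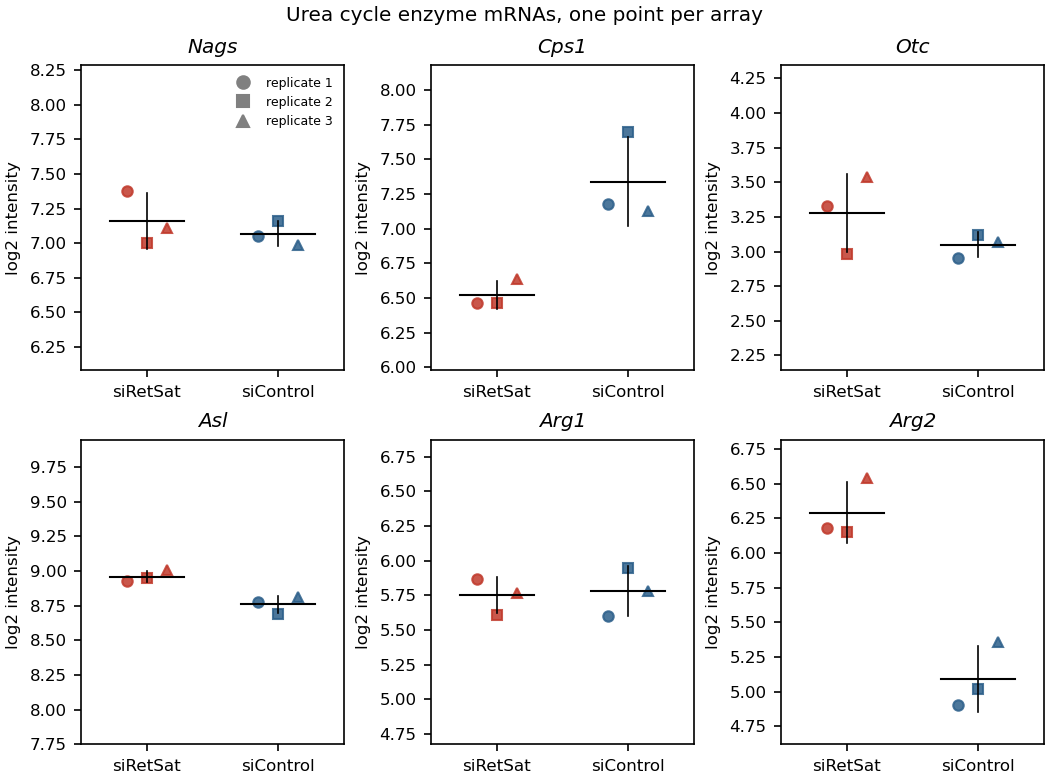
Log2 intensity (y axis) of the 6 measured urea cycle enzymes in each array, with siRetSat left of siControl and the same y span in every panel. Each point is an array, with the mean of a group as a horizontal bar and 1 SD as a vertical line (n = 3). Cps1 lies lower in all siRetSat arrays, at 6.46 to 6.64, and Arg2 higher, at 6.15 to 6.54.

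Cps1, the enzyme that commits ammonia to urea, was lower in every RetSat-depleted culture. Its log2 intensity was 6.46, 6.46 and 6.64 in siRetSat and 7.18, 7.70 and 7.13 in siControl. The highest siRetSat value lay 0.49 below the lowest siControl value, and control replicate 2 stood above the other controls. Cps1 averaged 6.52 ± 0.10 in siRetSat and 7.34 ± 0.32 in siControl (SD, n = 3 each). The difference was -0.82 (standard error 0.155, 95% confidence interval -1.17 to -0.46, adjusted p = 0.0291 from limma). The call did not hold in every fit that left out 1 array, and such fits called fewer of all genes (207 to 646, against 710). It passed without siControl replicate 1 or 3, but not without siControl replicate 2 (difference -0.64, adjusted p = 0.0605 from limma). Without siRetSat replicate 1, 2 or 3 the difference stayed at -0.79, -0.79 and -0.88 but did not pass (adjusted p = 0.0644, 0.134 and 0.0658 from limma). The call was also lost by the methods' t-test (adjusted p = 0.191), with background subtracted (adjusted p = 0.144), with all probe sets in the fit (adjusted p = 0.0959) and without both arrays of any 1 number (adjusted p of 0.0611 to 0.325, these from limma). The deposited values come from whole cultures, so fewer cells that express a gene and less of its mRNA per cell cannot be told apart.

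Nags, which makes the allosteric activator that Cps1 needs, did not pass. Its log2 intensity was 7.38, 7.0 and 7.11 in siRetSat and 7.05, 7.16 and 6.99 in siControl. The groups overlapped, and siRetSat replicate 1 was the highest of the 6 arrays. Nags averaged 7.16 ± 0.20 in siRetSat and 7.07 ± 0.09 in siControl (SD, n = 3 each), a difference of 0.10 (95% confidence interval -0.17 to 0.36, adjusted p = 0.848 from limma). Without siRetSat replicate 1 the difference was -0.01.

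Otc, the third mitochondrial member, gave a dim signal in both groups. Its log2 intensity was 3.33, 2.98 and 3.54 in siRetSat and 2.95, 3.12 and 3.07 in siControl. All these values lie under 4.33, the 40th percentile of mean gene signal used here as the limit for dim genes. Signals of different probe sets cannot be ranked as levels, so this does not give how much Otc mRNA the cells held. All 7 general hepatocyte markers examined, Alb among them, were above that limit. The Otc difference was 0.24 (95% confidence interval -0.09 to 0.56, adjusted p = 0.555 from limma), and a change of a dim signal can be understated.

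Asl, which releases arginine from argininosuccinate, showed a small and narrow separation. Its log2 intensity was 8.93, 8.95 and 9.01 in siRetSat and 8.78, 8.69 and 8.81 in siControl. The groups did not overlap, with a gap of 0.12 between them. Asl averaged 8.96 ± 0.04 in siRetSat and 8.76 ± 0.06 in siControl (SD, n = 3 each). The difference of 0.20 (95% confidence interval 0.01 to 0.40) did not pass over all genes (adjusted p = 0.310 from limma), and it is 1.15-fold on the linear scale.

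Both arginases were measured. Arg1, the hepatocyte enzyme that ends the cycle, had log2 intensities of 5.87, 5.61 and 5.77 in siRetSat and 5.60, 5.95 and 5.78 in siControl. The groups overlapped over most of their range. Arg1 averaged 5.75 ± 0.13 in siRetSat and 5.78 ± 0.18 in siControl (SD, n = 3 each), a difference of -0.03 (95% confidence interval -0.30 to 0.24, adjusted p = 0.976 from limma). The sign of this value turned when replicate 2 of either group was left out, to 0.04 without siRetSat replicate 2 and 0.06 without siControl replicate 2.

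Arg2, the mitochondrial arginase, had log2 intensities of 6.18, 6.15 and 6.54 in siRetSat and 4.90, 5.02 and 5.36 in siControl. Replicate 3 was the highest array within both groups, and the groups lay 0.79 apart at their nearest values. Arg2 averaged 6.29 ± 0.22 in siRetSat and 5.09 ± 0.24 in siControl (SD, n = 3 each). The difference was 1.20 (standard error 0.152, 95% confidence interval 0.85 to 1.55, adjusted p = 0.00556 from limma). Omitting any 1 of the 6 arrays kept the call, with differences of 1.07 to 1.33 and adjusted p of 0.00824 to 0.0439. The call was lost by the methods' t-test (adjusted p = 0.1), with background subtracted (adjusted p = 0.0675 from limma) and without both arrays numbered 2 (adjusted p = 0.178 from limma). Macrophages can also express arginases, so the 10 macrophage markers examined were set beside it. Of these, 7 were dim, including Adgre1, Csf1r and Marco, 1 rose (Cd14, by 0.59) and none fell, beside 3.56% of all genes called. By sign alone these markers split into 5 higher and 5 lower, with a median difference of 0.03. Their summed linear intensity was 3280 to 3520 in siRetSat and 2430 to 2710 in siControl, with Cd68 the largest part and not passing (0.40, adjusted p = 0.0563 from limma). The part of macrophages in the Arg2 value was not tested.

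Whether neighbouring steps of the cycle, or the arginases Arg1 and Arg2 of the same step, changed unequally was examined within each array. The measure was the log2 difference between their probe sets, which cancels a shift common to the whole array. The size of such a difference depends on the probes, so only its shift between groups is read. For Arg1 minus Arg2 it was -0.31, -0.54 and -0.77 in siRetSat and 0.70, 0.93 and 0.42 in siControl, a shift of -1.22. For Nags minus Cps1 it was 0.92, 0.54 and 0.47 in siRetSat and -0.13, -0.54 and -0.14 in siControl, a shift of 0.91. The groups did not overlap in either pair. For Cps1 minus Otc, where Otc is dim, the shift was -1.05, also without overlap. For Asl minus Arg1 the groups overlapped and the shift was 0.23. On the log2 scale each shift follows from the differences of its enzymes given above. Every pair without overlap holds Cps1 or Arg2, so these shifts are not evidence separate from those of Cps1 and Arg2. The two-sided exact permutation test gave p = 0.1 for the 3 pairs without overlap, which is the smallest p that 3 arrays against 3 allow, and p = 0.2 for Asl minus Arg1. Adjusted over the 4 pairs these were 0.133 and 0.2, so this test could call no shift whatever its size. The steps on both sides of Ass1 were not computed.

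**Figure D2:**
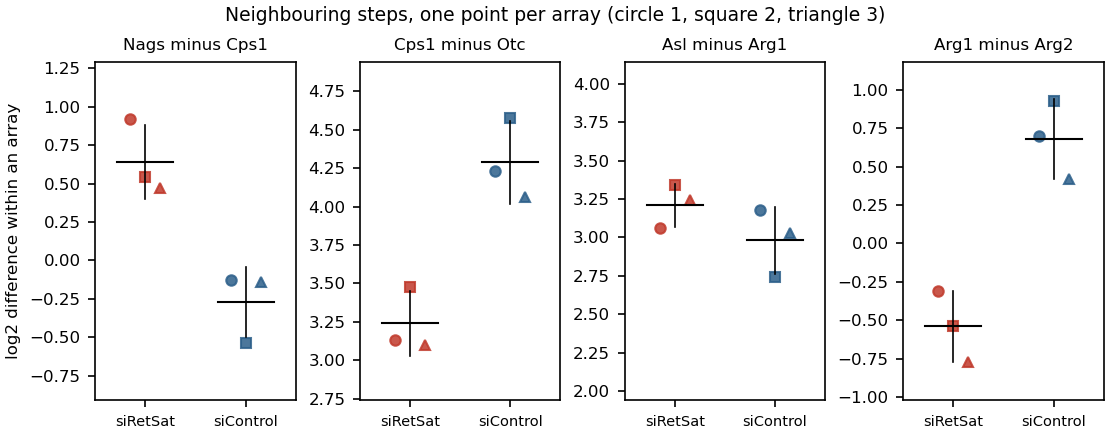
Log2 difference between neighbouring enzymes, or between the arginases Arg1 and Arg2, within each array (y axis). siRetSat is left of siControl, for 4 pairs with the same y span. Each point is an array, with the mean of a group as a horizontal bar and 1 SD as a vertical line (n = 3). The Arg1 minus Arg2 panel shows the widest shift, -1.22, and only Asl minus Arg1 overlaps between groups.

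The cycle depends on genes that bring in nitrogen, carry its intermediates across the mitochondrial membrane, or move its substrates in and out of cells. Other genes make or use ornithine and arginine outside it, or regulate its enzymes. Of 48 partners in these 5 lists 43 were measured, of which 2 rose, 4 fell and 37 were not called. These 6 are 14% of the partners, beside 3.56% of all genes. The shares are not of like genes, since 40% of all genes are dim by the limit used and a smaller part of the partners is. With dim genes removed, 8 partners and 964 of the remaining genes were called. The dim partners were 2 carriers and 1 gene each of the nitrogen supply, branch and transport lists, and no regulator. Outside the members, 11962 genes were not dim. The share called was thus still larger among the partners. The lists were also chosen with earlier results of these data known. The median difference over the partners was -0.01 and that over all genes 0.00. The number of partners called fell to 0 without siRetSat replicate 2 or without siControl replicate 2, and to 2 without replicate 3 of either group. Calls over all genes fell in these fits too, from 710 to 226 without siRetSat replicate 2 and 207 without siControl replicate 2. They were 317 without siRetSat replicate 3 and 294 without siControl replicate 3.

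**Figure D3:**
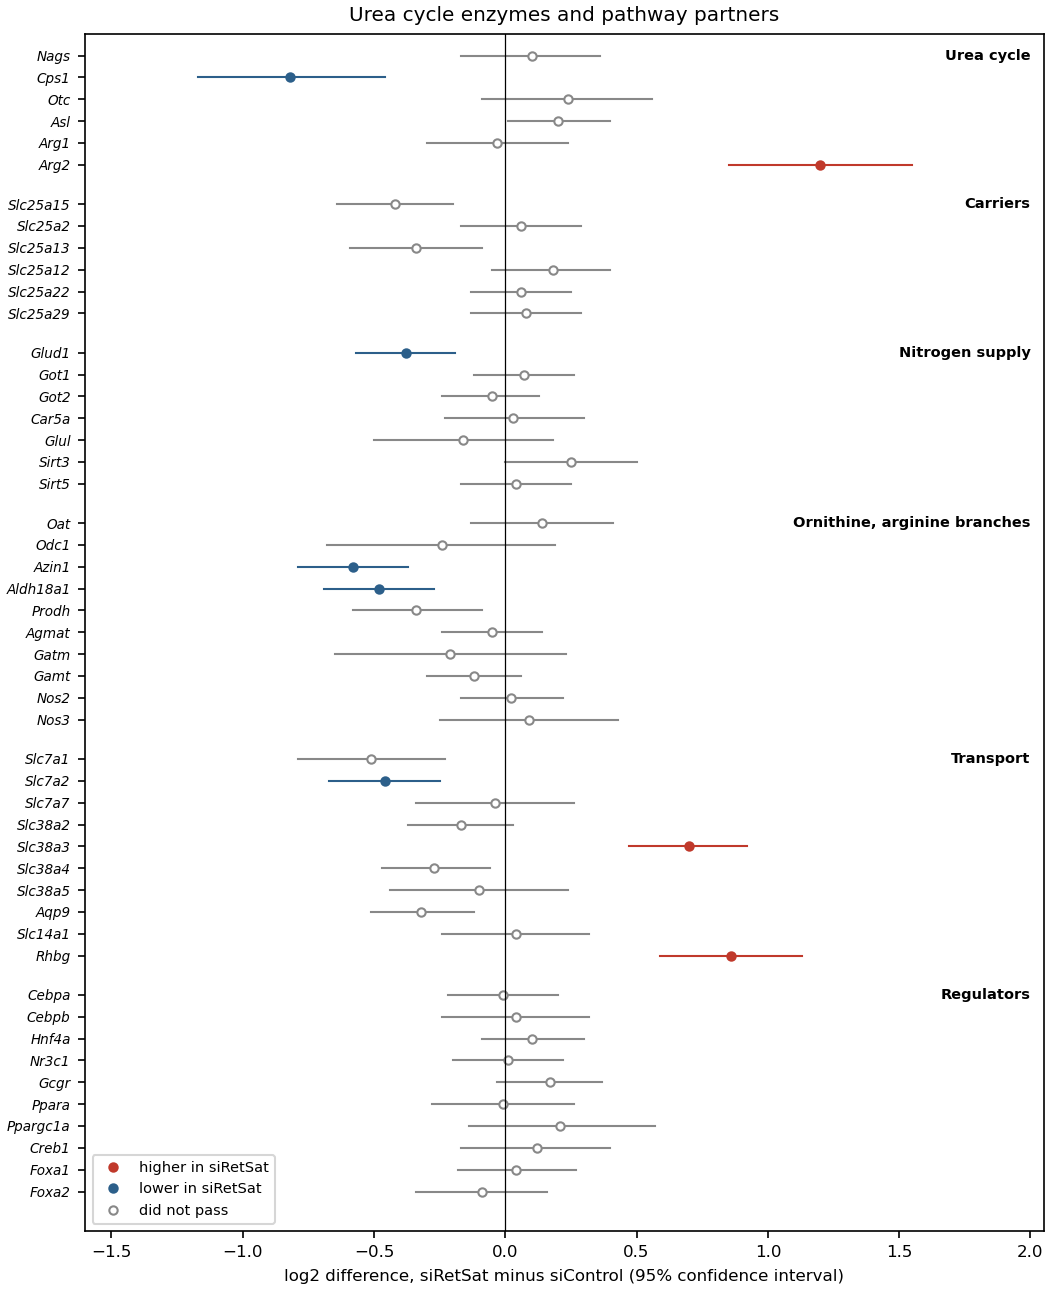
Log2 difference, siRetSat minus siControl (x axis), with 95% confidence intervals for the urea cycle enzymes and 43 measured partners, grouped by role. Filled points are called genes (limma, adjusted p under 0.05) and open points the others. Arg2 at 1.20 and Rhbg at 0.86 lie furthest to the right, and Cps1 at -0.82 furthest to the left.

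Among genes that supply nitrogen, Glud1 fell. It encodes glutamate dehydrogenase, which frees ammonia from glutamate in the mitochondrion next to Cps1. Its log2 intensity was 12.48, 12.34 and 12.38 in siRetSat and 12.79, 12.79 and 12.77 in siControl. The groups did not overlap, and the difference was -0.38 (adjusted p = 0.0477 from limma). With 1 array omitted the call was kept only where that array was siRetSat replicate 1. The other 6 measured genes of this list did not pass. They include both aspartate transaminases Got1 and Got2, glutamine synthetase (Glul), and the mitochondrial deacylases Sirt3 and Sirt5. Their differences ran from -0.16 for Glul to 0.25 for Sirt3.

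No mitochondrial carrier of the 6 measured passed by limma after adjustment. An unadjusted p under 0.05 was reached by 2, as by 14.5% of all genes. The groups did not overlap for the same 2, both lower, as for 19.5% of all genes. The ornithine and citrulline exchanger Slc25a15 came nearest, at log2 intensities of 7.53, 7.34 and 7.55 in siRetSat and 7.83, 7.93 and 7.92 in siControl. Its groups did not overlap, and the difference was -0.42 (adjusted p = 0.0529 from limma). Slc25a13, the citrin protein that exports aspartate for the Ass1 step, had a difference of -0.34 without overlap (adjusted p = 0.164), and its paralog Slc25a12 one of 0.18 (adjusted p = 0.511, both from limma). The other 3 carriers lay between 0.06 and 0.08, and 2 of these 3, Slc25a2 and Slc25a29, were dim.

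In the branches that lead to or from ornithine and arginine outside the cycle, 2 of 10 measured genes fell and none rose. Over all genes, 1.66% fell and 1.91% rose. The groups did not overlap for 4 of the 10, all lower, beside 19.5% of all genes. Azin1, the antizyme inhibitor that keeps ornithine decarboxylase from being degraded, had log2 intensities of 9.19, 9.17 and 9.21 in siRetSat and 9.65, 9.88 and 9.77 in siControl. The siRetSat arrays were within a narrow band below all controls, and the difference was -0.58 (adjusted p = 0.0149 from limma). Aldh18a1, which makes the precursor of proline and ornithine from glutamate, had log2 intensities of 7.27, 7.36 and 7.46 in siRetSat and 7.90, 7.87 and 7.76 in siControl. Its groups did not overlap either, and the difference was -0.48 (adjusted p = 0.0300 from limma). Omitting any 1 array ended the call of Aldh18a1 (adjusted p of 0.0588 to 0.148). Azin1 did not pass without replicate 2 or 3 of either group (adjusted p of 0.0559 to 0.0883). Odc1, the decarboxylase itself, had a difference of -0.24 and ornithine aminotransferase (Oat) one of 0.14, and neither passed. Prodh, at -0.34, had an unadjusted p of 0.0131 and did not pass either (adjusted p = 0.167, both from limma).

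Among transporters of nitrogen compounds, 2 of 10 rose and 1 fell, beside 1.91% and 1.66% of all genes. Rhbg, an ammonia channel of hepatocytes around the central vein, had log2 intensities of 5.75, 6.13 and 6.11 in siRetSat and 5.10, 5.10 and 5.21 in siControl. The difference was 0.86 (adjusted p = 0.00818 from limma), and the groups lay 0.54 apart at their nearest values. Slc38a3, a glutamine transporter, had log2 intensities of 8.22, 8.32 and 8.22 in siRetSat and 7.68, 7.41 and 7.58 in siControl, a difference of 0.70 (adjusted p = 0.00897 from limma). Neither passed without siRetSat replicate 2 (adjusted p = 0.0511 for Rhbg and 0.0620 for Slc38a3) or without siControl replicate 2 (adjusted p = 0.0597 for Rhbg and 0.0525 for Slc38a3).

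Slc7a2, an arginine and ornithine transporter of the liver, fell. Its log2 intensity was 6.62, 6.64 and 6.72 in siRetSat and 7.0, 7.21 and 7.15 in siControl, a difference of -0.46 (adjusted p = 0.0353 from limma) without overlap. With 1 array omitted the call was kept only where that array was siControl replicate 1. Its paralog Slc7a1, named here after its values were seen, had a difference of -0.51 and missed the threshold (adjusted p = 0.0691 from limma). The remaining transporters of the list lay between -0.32 for Aqp9, the urea and glycerol channel, and 0.04 for the urea transporter Slc14a1, which was dim. Over the whole list of 10, 6 had an unadjusted p under 0.05 from limma, as 14.5% of all genes did. Aqp9 was among them (adjusted p = 0.102 from limma). The groups did not overlap for 5 that were lower and 2 that were higher, beside 19.5% of all genes.

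None of the 10 measured regulators of urea cycle genes passed, by limma with adjustment or at an unadjusted p under 0.05, and the methods' t-test after adjustment called none of the partners. Cebpa and Cebpb, transcription factors that bind promoters of several cycle genes, had differences of -0.01 and 0.04. The glucagon receptor Gcgr had a difference of 0.17 (95% confidence interval -0.03 to 0.37), the coactivator Ppargc1a one of 0.21 (-0.14 to 0.57) and Hnf4a one of 0.10 (-0.09 to 0.30).

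Because the cycle is zoned in the lobule, markers of each zone were set beside it. Of 5 measured markers of portal hepatocytes, 1 rose and none fell (1.91% and 1.66% of all genes), with a median difference of -0.01. The one that rose was Cyp2f2, at 0.48 (adjusted p = 0.0450 from limma), and omitting any 1 array ended the call (adjusted p of 0.0903 to 0.159). Of 10 markers of central hepatocytes, 2 rose and none fell (1.91% and 1.66% of all genes), with a median of 0.15. These were Rhbg, given above, and Lect2, a secreted protein, at 0.95 (adjusted p = 0.0124 from limma). Lect2 did not pass without replicate 2 of either group (adjusted p = 0.0692 without siRetSat replicate 2 and 0.0794 without siControl replicate 2). Glul and Cyp2e1, which define the central zone, had differences of -0.16 and -0.14 and did not pass. Gulo was lower without overlap, at -0.30, but did not pass (adjusted p = 0.311 from limma). Rhbg and Lect2 were higher without overlap, and 19.5% of all genes did not overlap. In this list of 10, 6 differences lay above 0 and 4 below.

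General hepatocyte markers, and markers of other cells the culture could hold, were also examined. Of 7 general hepatocyte markers 1 fell, Ahsg, at -0.52 (adjusted p = 0.0196 from limma), and their summed linear intensity was 22400 to 22900 in siRetSat and 23800 to 24900 in siControl. Of 5 endothelial markers none passed by limma after adjustment, and 1, Stab2, had an unadjusted p under 0.05. Of 8 stellate cell and fibroblast markers 1 passed, Acta2, at -2.40, while the median was 0.13 and Col1a1 had a difference of 0.70 (adjusted p = 0.531 from limma). Their summed linear intensity was 399 to 652 in siRetSat and 1190 to 1420 in siControl, but without Acta2, left out after its value was seen, it was 198 to 416 in siRetSat and 191 to 248 in siControl. Of 4 measured bile duct markers 1 rose, Sox9, by 0.45. Beside these counts, 3.56% of all genes were called and 14.5% had an unadjusted p under 0.05 from limma. The part of these cell types in the urea cycle values was not tested.

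For each enzyme the genes with the most similar course over the 6 arrays were sought among 11962 other genes that are not dim, by Pearson's r on the log2 values. For Arg2 these were Hamp, which encodes the iron hormone hepcidin (r = 0.999), and Tmtc3 (r = 0.997). Hamp had a difference of 1.28 (adjusted p = 0.00467 from limma). For Cps1 they were Sntb1 (r = 0.998) and Rhobtb1 (r = 0.995). For Asl they were Lrrc8c (r = 0.995) and Bckdhb (r = 0.992), for Nags Chga (r = 0.996) and Fam170b (r = 0.992), for Arg1 Ugt2b34 (r = 0.989) and Cpq (r = 0.970), and for the dim Otc Rsph9 (r = 0.992) and Tnfrsf23 (r = 0.971). These values describe 6 arrays in 2 groups, over which many genes reach a high r, and carry no test.

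**Figure D4:**
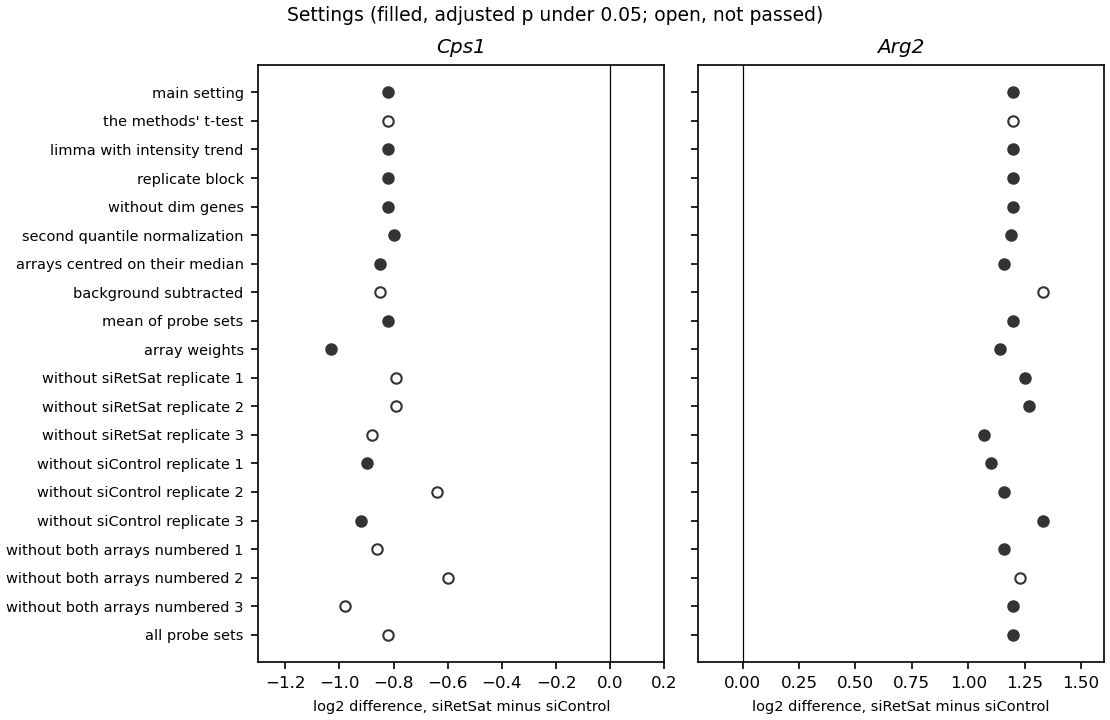
Log2 difference, siRetSat minus siControl (x axis), of Cps1 and Arg2 under each processing setting or set of arrays (rows). Filled points passed an adjusted p of 0.05 and open points did not. Cps1 stays between -1.03 and -0.60 but is often open, and Arg2 stays between 1.07 and 1.33 and is open in 3 settings.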

How the data were processed

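The 6 arrays, 3 siRetSat and 3 siControl, were grouped by the sample titles. The values deposited by the authors are log2 intensities of 35556 probe sets. Per the labels' processing notes they were made with RMA (background correction, quantile normalization and summary of probes) and Partek 6.6, whose settings were not given. They ran from 1.46 to 13.7, and the small number of arrays limits the precision.

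The platform annotation named 1 gene for 21789 probe sets, several for 1621 and none for 12146. RefSeq's table for GRCm38.p6 updated 21698 symbols, and 91 were kept. The brightest probe set stood for each of 19938 genes. limma 3.58.1 under R 4.3.3 (lmFit, eBayes) set siRetSat against siControl without covariates, and p-values were adjusted by the Benjamini-Hochberg method over these genes. This step was tested on simulated data with noise drawn independently for each gene and array, so that test does not cover arrays that deviate together. SciPy 1.17.1 gave the exact permutation tests, and Python 3.11.15, pandas 2.3.3 and matplotlib 3.10.9 the tables and plots.

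The rule for named genes took all members, Retsat, in each partner and zone list the genes past the threshold or else the 3 with the smallest p, and the 2 genes most like each member. Genes outside it, among them Slc7a1, the cell type markers and those that bound a range, were named after their values were seen. Without a probe set of their own symbol, 5 partners and 3 markers were not analysed here, with Gls2 in both counts. The members, lists and alternatives were chosen with earlier results of these data known. Alternatives were the methods' t-test, an intensity trend, the replicate number as a block, removal of dim genes, a repeated quantile normalization, median centring, a subtracted 5th percentile floored at 16, averaged probe sets, all probe sets, array weights and omitted arrays.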

Additional observations from a re-analysis of the deposited data

Results flagged for a closer look

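The 2 probe sets annotated to both Ass1, the argininosuccinate synthetase of the cycle, and Gm5424 were left out of the gene comparison and were higher in RetSat-depleted cells than in the controls, which is why they are given here. The log2 intensity of one was 10.09, 10.24 and 10.31 in siRetSat and 9.35, 9.88 and 9.66 in siControl, and that of the other 9.84, 9.99 and 10.03 in siRetSat and 9.17, 9.63 and 9.40 in siControl. All siRetSat arrays lay above all siControl arrays in both. In the gene comparison, 19.5% of the 19938 genes likewise did not overlap, in either direction. The differences were 0.58 and 0.55, at an unadjusted p of 0.00600 and 0.00472 and an adjusted p of 0.180 and 0.160 from limma over all 35556 probe sets, so neither passed. The pair ran in parallel over the 6 arrays (r = 0.998), and their annotation lists the same transcripts, so they are not separate evidence. Which of the annotated genes the signal comes from was not tested. Groups of 3 arrays were not tested for outlying arrays.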

How the results depend on the processing

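Arg2 stayed higher and Cps1 lower in siRetSat under all 19 alternatives, but their calls did not always hold. By the methods' t-test (two-tailed, then Benjamini-Hochberg), Cps1 at -0.82 and Arg2 at 1.20 did not pass (adjusted p = 0.191 and 0.1), so 0 members and 0 partners were called, against 2 and 6 by limma. At the unadjusted cutoffs 2 members passed in both. With background subtracted, Cps1 at -0.85 and Arg2 at 1.33 did not pass (adjusted p = 0.144 and 0.0675 from limma), leaving 0 members and 3 partners. The standard errors there were near those of the t-test, 0.191 and 0.192 for Cps1 and 0.201 and 0.186 for Arg2. Both lay above those of the main fit (0.155 and 0.152), so this setting is not a check separate from the t-test. With all probe sets in the fit, Cps1 at -0.82 did not pass (adjusted p = 0.0959), leaving 1 member and 3 partners. With array weights, Asl at 0.23 passed, Nags turned to -0.07 and 11 partners were called.

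Without both arrays numbered 1, Cps1 was -0.86 and did not pass, 1 member was called and Nags turned to -0.02. Without both numbered 2, Cps1 at -0.60 and Arg2 at 1.23 did not pass, 0 members and 0 partners were called and Arg1 turned to 0.13. Without both numbered 3, Cps1 at -0.98 did not pass, with 1 member and 0 partners called. Over the 6 fits that leave out 1 array, Cps1 ranged from -0.92 to -0.64, Arg2 from 1.07 to 1.33, Nags from -0.01 to 0.18, Arg1 from -0.12 to 0.06, members called from 1 to 2 and partners called from 0 to 4.

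With the replicate number as a block, Cps1 at -0.82 and Arg2 at 1.20 both passed, and 2 members and 8 partners were called. Slc25a15 passed with the block, an intensity trend, without dim genes and with array weights (adjusted p of 0.00185 to 0.0292). Slc7a1 passed with the block, without dim genes, with median centring and with array weights (adjusted p of 0.00258 to 0.0445), and Slc25a13 with array weights alone (adjusted p = 0.00544). Same-numbered arrays deviated together for number 1 (r = 0.547) and number 3 (r = 0.541) but not for number 2 (r = 0.0398), and not every array correlated best with its own number, so they were not treated as pairs. Over all genes 710 were called, against 196 by the methods' t-test, 1078 with a trend, 1541 with the block, 2905 with array weights, 445 with background subtracted, 329 of all probe sets, 15 without both arrays numbered 2, 111 without both numbered 3 and 207 to 646 without 1 array. The Otc signal was at the floor after background subtraction, so its value there has no direction. The signs of the 4 differences between enzyme pairs held in all of their alternatives.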
